A study of Homo sapiens with 9 samples.

Results

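Mitochondrial ribosomal protein mRNAs were followed through RNA that was pulled down with an antibody to DCC, RNA that was pulled down with an antibody to Nrp1, and RNA of the lysate itself. The members were the genes whose symbol begins with MRPL or MRPS and continues with a number and at most a letter A, B or C. The count tables held 76 such genes of 42785, with 47 large subunit (MRPL) and 29 small subunit (MRPS) symbols. Across these genes the count was very uneven. MRPS16 and MRPS17 took 91.4% ± 2.20 (SD, n = 3) of all member counts in Nrp1-IP and 83.1% ± 9.78 in Input, but 33.7% ± 14.8 in DCC-IP. Both were higher in Nrp1-IP than in DCC-IP, whereas 23 of the 29 members tested between the pulldowns had a negative log2 fold change there, and MRPS15 was called lower. Negative values were not particular to the members. The median over all genes tested was −0.268. Of the cytosolic ribosomal protein genes 25 of 36 were negative, and of the nuclear respiratory chain genes 21 of 29.

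The mitochondrial ribosome sits in the matrix and makes the few proteins that the mitochondrial genome encodes, all of them subunits of the respiratory chain and the ATP synthase. Its ribosomal RNAs are encoded in the mitochondrial genome, while its proteins are encoded in the nucleus, translated in the cytosol and imported. Part of the proteins have relatives in bacterial ribosomes, and part are found only in mitochondria. The small subunit reads the mRNA and the large subunit joins the amino acids. Symbols do not follow the structure in every case, since the proteins of MRPS30 and MRPS18A sit in the large subunit and that of MRPS36 is now counted with a dehydrogenase complex.

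SH-SY5Y is a human neuroblastoma line, grown here in high glucose medium with serum and given no further treatment according to the labels. DCC, the netrin receptor, was pulled down with a mouse antibody (DCC-IP) and Nrp1, a receptor for semaphorins, with a rabbit antibody (Nrp1-IP), so antibody and receptor cannot be told apart. Beads were washed and the RNA was amplified as cDNA by a method made for small samples, while the Input libraries came from the lysate with no pulldown. Each group had 3 libraries, and a pulldown with control IgG was not analysed here. The study states that experiments had at least 3 independent replicates. Where libraries shared a culture, the p-values below measure only the spread between these libraries.

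The libraries held 8838296 to 11055895 reads that fell on genes, and 6652 to 12240 genes had a count, fewest in DCC-IP replicate 1 (6652) and Input replicate 1 (8169). MAP1B alone took 40.3% to 52.1% of gene counts in DCC-IP and 1.58% to 2.44% elsewhere. CPM are counts scaled to a common library size, with TMM factors over the 9 libraries. A CPM is a share of a library, so less of an mRNA and more of the other RNA cannot be told apart in it. As lengths were not used, CPM were compared between libraries and not between genes as numbers of molecules. The labelled line was checked against marker genes of noradrenergic neuroblastoma cells. Of these, ISL1 had 1833 to 3121 counts in Input, but TH had 0 counts in all 9 libraries. All 7 markers of other lineages were at 0. DCC mRNA had 0 counts in all 9 libraries, and NRP1 mRNA had 198 to 320 in Input.

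Most of these mRNAs were counted rarely. The median member had 83.5 counts summed over the 9 libraries, 71 for large and 95 for small subunit genes. A level of 3 counts was taken as the floor, which corresponded to 0.208 to 0.386 CPM depending on the library, a limit for counting error only. In all, 15 members were over it in all 9 libraries, 7 of the large subunit (MRPL9, MRPL10, MRPL33, MRPL34, MRPL38, MRPL40 and MRPL52) and 8 of the small (MRPS6, MRPS14, MRPS15, MRPS16, MRPS17, MRPS21, MRPS25 and MRPS33). The number of members over the floor was 19, 37 and 43 for DCC-IP, 30, 32 and 48 for Nrp1-IP and 27, 53 and 58 for Input. It was lowest in DCC-IP replicate 1 and Input replicate 1, which also had the fewest detected genes, and the part of this in the low values was not tested. No library lifted 8 members over the floor. Of these, MRPL16, MRPL30, MRPL46 and MRPS18B were at 0 in all 9 libraries, and MRPL13, MRPL35, MRPS24 and MRPS26 had 2 to 8 counts in total. In these libraries these 8 were not detected, which does not show that they were absent.

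**Figure D1:**
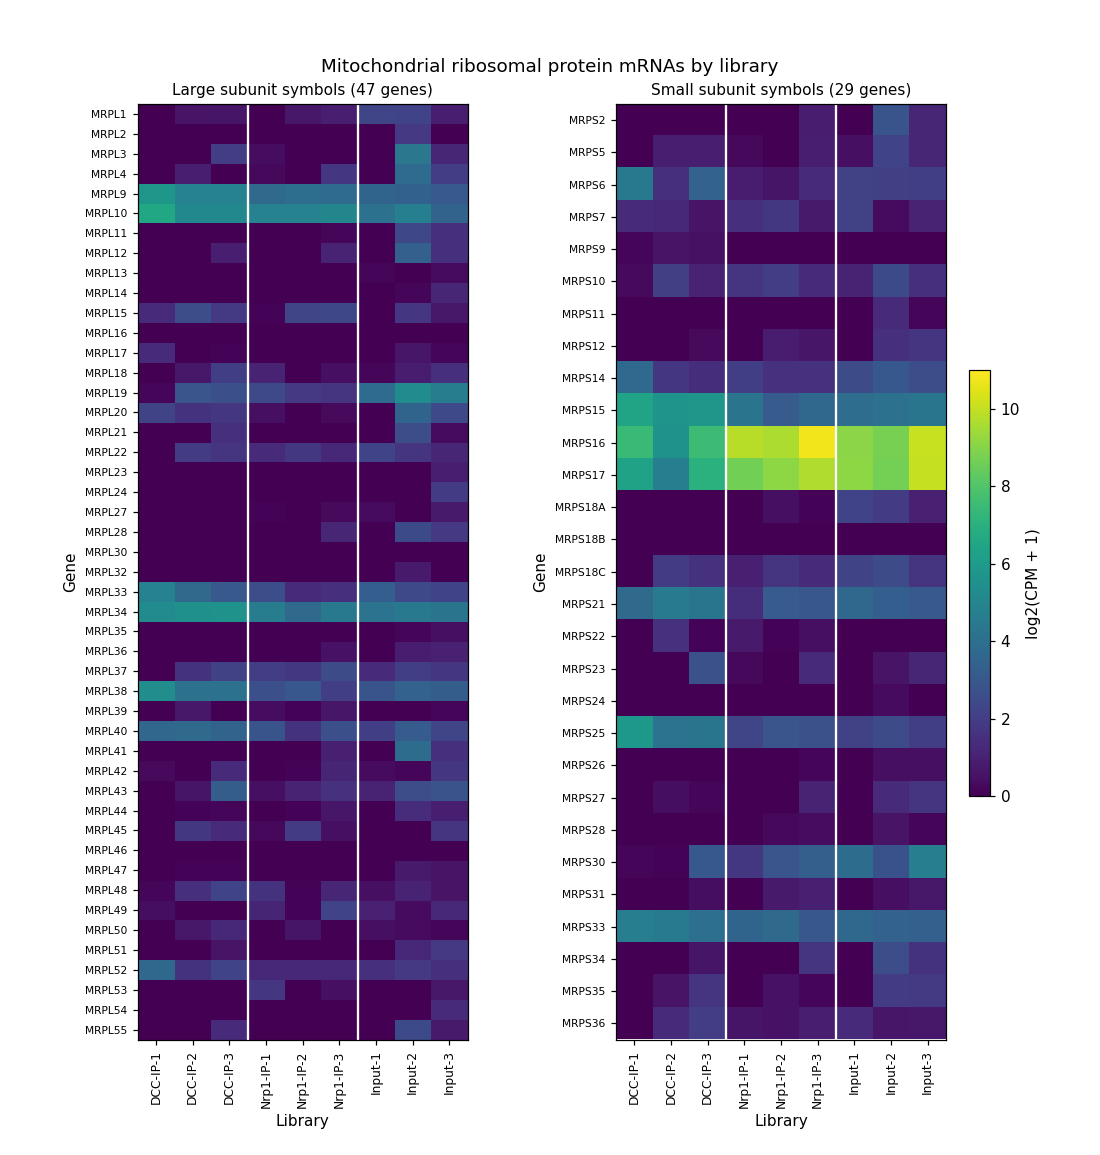
Level of each of the 76 members in each library, as log2(CPM + 1), with large subunit symbols on the left and small subunit symbols on the right; white lines part the groups. MRPS16 and MRPS17 are the brightest rows in Nrp1-IP and Input, and rows such as MRPL9, MRPS15 and MRPS25 are brightest in DCC-IP.

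The subunits were compared first by their summed CPM. Over the 47 large subunit genes the sum was 219.6 ± 60.3 CPM (SD, n = 3) for DCC-IP, 98.2 ± 12.01 for Nrp1-IP and 150.4 ± 73.6 for Input. The 3 DCC-IP sums (289, 179 and 191 CPM) lay above the 3 Nrp1-IP sums (102, 84.9 and 108 CPM), while those of Input (91.0, 233 and 128 CPM) overlapped both. Over the 29 small subunit genes the sum was 378 ± 152 CPM for DCC-IP, 1796 ± 718 for Nrp1-IP and 1440 ± 673 for Input. Here the 3 DCC-IP sums (471, 202 and 461 CPM) lay below the lowest of the other 6 (934 CPM). The ratio of small to large sums was therefore 1.72 ± 0.644 for DCC-IP, 18.1 ± 5.61 for Nrp1-IP and 11.4 ± 6.77 for Input. No test was made over these sums, since the members were chosen with results known.

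The gap between the subunit sums lay in MRPS16 and MRPS17. They held 52.9% ± 16.5 of the small subunit counts for DCC-IP (36.0% to 68.9%), 96.8% ± 0.886 for Nrp1-IP and 93.1% ± 2.92 for Input. With both left out, a setting chosen after their counts were seen, the small subunit sum was 163 ± 47.0 CPM for DCC-IP, 53.5 ± 5.52 for Nrp1-IP and 88.2 ± 8.99 for Input. The groups were then in the same order as for the large subunit, and the 3 DCC-IP values (217, 129 and 143 CPM) lay above those of the other 6 libraries (47.3 to 93.7 CPM). The ratio of small to large sums became 0.741 ± 0.0145, 0.550 ± 0.0930 and 0.662 ± 0.234.

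**Figure D2:**
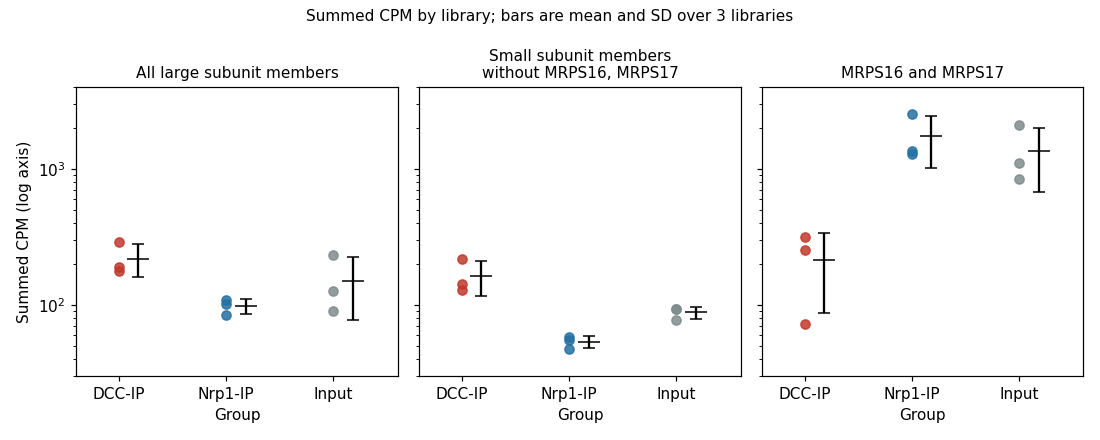
Summed CPM on a log axis in each library (points), with the mean and SD over 3 libraries (bars), for all large subunit genes, for the small subunit genes without MRPS16 and MRPS17, and for MRPS16 and MRPS17 together. The first 2 panels have the highest mean in DCC-IP (219.6 and 163 CPM), and the third has its lowest values there.

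MRPS16 encodes a small subunit protein with a bacterial relative. It had 1534, 592 and 2714 counts for DCC-IP, 9565, 8785 and 23110 for Nrp1-IP and 4189, 3580 and 8496 for Input. Every DCC-IP library was below every other library, and replicate 3 was the highest of each group. In CPM the means were 136 ± 77.3, 1146 ± 512 and 678 ± 342 (SD, n = 3). The log2 fold change for Nrp1-IP over DCC-IP was 2.98 ± 0.53 (SE), with an adjusted p of 0.0165 in edgeR's quasi-likelihood test.

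MRPS17 also encodes a small subunit protein with a bacterial relative. Its counts were 710, 318 and 1872 for DCC-IP, 4333, 6017 and 11063 for Nrp1-IP and 4381, 3462 and 8291 for Input, again with no overlap between DCC-IP and the rest. Nrp1-IP exceeded DCC-IP by 2.83 ± 0.57 on the log2 scale (SE, adjusted p = 0.0266, edgeR). Counts of MRPS16 per count of MRPS17 were 2.16, 1.86 and 1.45 in DCC-IP and 2.21, 1.46 and 2.09 in Nrp1-IP, but 0.956, 1.03 and 1.02 in Input. The ratio was thus higher in each of the 6 pulldown libraries than in Input, a difference of shares that was not tested. In Nrp1-IP over Input, neither gene passed (MRPS16 log2 fold change 0.80 ± 0.48, adjusted p = 0.381; MRPS17 −0.14 ± 0.45, adjusted p = 0.901, edgeR).

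These calls changed with the libraries used. Without DCC-IP replicate 1 the adjusted p in edgeR was 0.0652 for MRPS16 and 0.102 for MRPS17, and without Nrp1-IP replicate 1 it was 0.0786 and 0.0946. MRPS17 also missed the threshold without Nrp1-IP replicate 2 (0.0894) or 3 (0.0814). Under the other left-out libraries both stayed past it, or MRPS16 alone did.

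The counts of MRPS16 and of other members have a limit. In the RefSeq annotation of GRCh38.p14, MRPS16 overlaps DNAJC9-AS1, a noncoding gene, and the strand setting of the counting is not given in the sources used here, so reads of overlapping genes cannot be told apart. DNAJC9-AS1 had 508, 172 and 825 counts for DCC-IP, 3100, 2821 and 7169 for Nrp1-IP and 1329, 1058 and 2392 for Input. It kept a narrow ratio to MRPS16, from 0.282 to 0.331 of its counts in the 9 libraries, and Nrp1-IP exceeded DCC-IP by 2.99 on the log2 scale (adjusted p = 0.0215, edgeR). Of 75 members in that annotation, 32 overlap another gene. Among those described here these include MRPL19 (SUPT4H1P1), MRPL9 (OAZ3), MRPL34 (ABHD8), MRPS25 (NR2C2) and MRPS6 (SLC5A3), while MRPS17 and MRPS15 overlap none. The 2 listed pseudogenes of members, MRPL45P2 and MRPS31P5, were at or under the floor in every library.

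Several other abundant small subunit genes had their highest level in DCC-IP, while MRPS14 and MRPS30 had their highest mean in Input. MRPS15, with a bacterial relative, had 759, 634 and 797 counts for DCC-IP, 192, 87 and 161 for Nrp1-IP and 110, 136 and 148 for Input. The DCC-IP libraries were all above the other 6, which overlapped each other. Between the pulldowns, Nrp1-IP over DCC-IP, its log2 fold change was −2.47 ± 0.56 (SE, adjusted p = 0.0443, edgeR). That call was near the threshold. It was lost with any of the 6 libraries left out (adjusted p 0.0676 to 0.325), with RLE scaling, with library size only, with no filter and with MAP1B left out.

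MRPS25, a protein found only in mitochondrial ribosomes, had 511, 215 and 266 counts for DCC-IP, 42, 70 and 76 for Nrp1-IP and 26, 40 and 25 for Input. MRPS33, likewise without a bacterial relative, had 220, 274 and 219 counts in DCC-IP and 74 to 143 in the other 6 libraries. MRPS21 had 116, 277 and 269 counts for DCC-IP, 18, 87 and 92 for Nrp1-IP and 94, 74 and 58 for Input. In CPM, each of these genes had its 3 DCC-IP libraries above the other 6. None passed the test between the pulldowns: the log2 fold changes for Nrp1-IP over DCC-IP were −2.63 (adjusted p = 0.0907), −1.17 (0.417) and −1.87 (0.287) in edgeR. MRPS6, with 185, 23 and 143 counts for DCC-IP against 9, 6 and 21 for Nrp1-IP and 27, 27 and 25 for Input, overlapped Input through DCC-IP replicate 2.

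**Figure D3:**
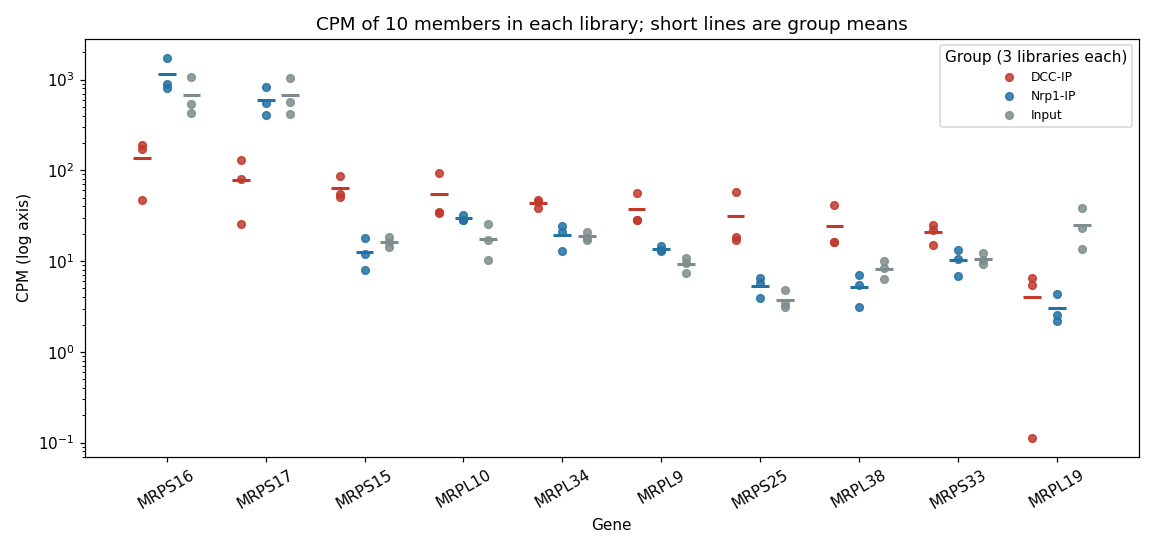
CPM on a log axis of 10 members in each library (points), with a short line at each group mean. MRPS16 and MRPS17 are lowest in DCC-IP, the next 7 genes have all 3 DCC-IP points above the other 6, and MRPL19 is highest in Input with a DCC-IP point at 0.113 CPM (1 count).

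The 3 most abundant large subunit genes also had their highest mean in DCC-IP, with Input lowest, and none was called by edgeR with the settings used throughout. MRPL10, which anchors the stalk that binds translation factors, had 837, 431 and 486 counts for DCC-IP, 306, 309 and 425 for Nrp1-IP and 131, 217 and 82 for Input. MRPL34, with a bacterial relative, had 337, 560 and 681 counts for DCC-IP, 260, 142 and 277 for Nrp1-IP and 132, 177 and 142 for Input. MRPL9, also with a bacterial relative, had 495, 353 and 414 counts for DCC-IP, 138, 160 and 176 for Nrp1-IP and 83, 80 and 59 for Input. For these genes the DCC-IP libraries lay above all others in CPM, at means of 54.3 ± 35.0, 43.4 ± 4.71 and 37.6 ± 15.9 CPM. The spread of MRPL10 came from DCC-IP replicate 1, at 94.6 CPM against 34.5 and 33.7.

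MRPL38, a mitochondria-specific protein, had 364, 202 and 234 counts for DCC-IP, 58, 76 and 41 for Nrp1-IP and 49, 83 and 67 for Input. MRPL40, of the same kind, had 101, 162 and 151 counts for DCC-IP, 66, 22 and 72 for Nrp1-IP and 24, 68 and 31 for Input. Both had no overlap between DCC-IP and the other libraries in CPM. MRPL33 had 250, 161 and 107 counts in DCC-IP and 17 to 68 elsewhere, but its lowest DCC-IP library (7.41 CPM) was below Input replicate 1 (8.76 CPM).

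In all, 9 members had every DCC-IP library above the other 6 libraries: MRPL9, MRPL10, MRPL34, MRPL38, MRPL40, MRPS15, MRPS21, MRPS25 and MRPS33. They were among the 25 members tested in all 3 comparisons, and 6.82% of the 5393 genes so tested had this order. In edgeR with the settings used throughout (each pair fitted alone, TMM scaling, no block), MRPS15 was the only call among them between DCC-IP and another group. That call was in the comparison with Nrp1-IP. Alternative settings gave further calls. Over Input these came with DESeq2, library size only, all 9 libraries in one fit, the block or a stricter filter. Between the pulldowns they came with DESeq2 or the stricter filter. Of the 20 members with the highest mean CPM over the 9 libraries, which held 97.1% of the member counts, 12 had their highest group mean in DCC-IP, 7 in Input and 1 (MRPS16) in Nrp1-IP. Nrp1-IP was the lowest group for 13. Of the less abundant members with a count, 36 were highest in Input, 10 in DCC-IP and 6 in Nrp1-IP, at levels where DCC-IP replicate 1 and Input replicate 1 often had 0 counts. How all genes split by highest or lowest group was not counted, so these splits are no result particular to the members.

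The comparison of the pulldowns with each other asks which mRNAs came down more with Nrp1 or with DCC. It covered 29 members of the 6439 genes that passed the filter on low counts, 15 of the large and 14 of the small subunit. In edgeR, 2 members were called higher in Nrp1-IP (MRPS16 and MRPS17), where 2.56% of all genes were, and 1 higher in DCC-IP (MRPS15), where 1.09% were. At an unadjusted p under 0.05, 2 were higher and 9 lower in Nrp1-IP. The share of all genes at that level was not counted, so this is no result about the members. Every Nrp1-IP library was above every DCC-IP library for 2 members (15.6% of all genes), and every DCC-IP library above every Nrp1-IP library for 13 (10.9% of all genes). The median log2 fold change was −1.33 for large and −1.04 for small subunit genes, beside −0.27 for all genes. No large subunit gene passed at the adjusted level.

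Members outside the calls with the most negative log2 fold changes for Nrp1-IP over DCC-IP were MRPL20 (−3.83 ± 1.54, SE), MRPS6 (−3.50 ± 1.14), MRPS25 (−2.63 ± 0.73), MRPL33 (−2.60 ± 0.92), MRPL38 (−2.35 ± 0.74), MRPL52 (−2.18 ± 1.10), MRPS21 (−1.87 ± 0.83), MRPL9 (−1.59 ± 0.57) and MRPL40 (−1.53 ± 0.83). Their adjusted p ran from 0.0907 to 0.395 in edgeR. MRPL20 had 33, 26 and 34 counts for DCC-IP, 4, 0 and 3 for Nrp1-IP and 0, 90 and 35 for Input, so that the pulldowns did not overlap but Input spanned both. DESeq2 called 4 of these members, MRPL20, MRPL38, MRPS25 and MRPS6, beside MRPS15, where 2.7% of all genes were called higher in DCC-IP. It also called MRPS16 and MRPS17 higher in Nrp1-IP, where 4.94% of all genes were. Positive values below the threshold were those of MRPS30 (1.18), MRPL37 (0.70), MRPS7 (0.35) and MRPS10 (0.28), each with an SE above 1.2, and MRPL19 was at −0.64 and MRPS18C at −0.30.

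**Figure D4:**
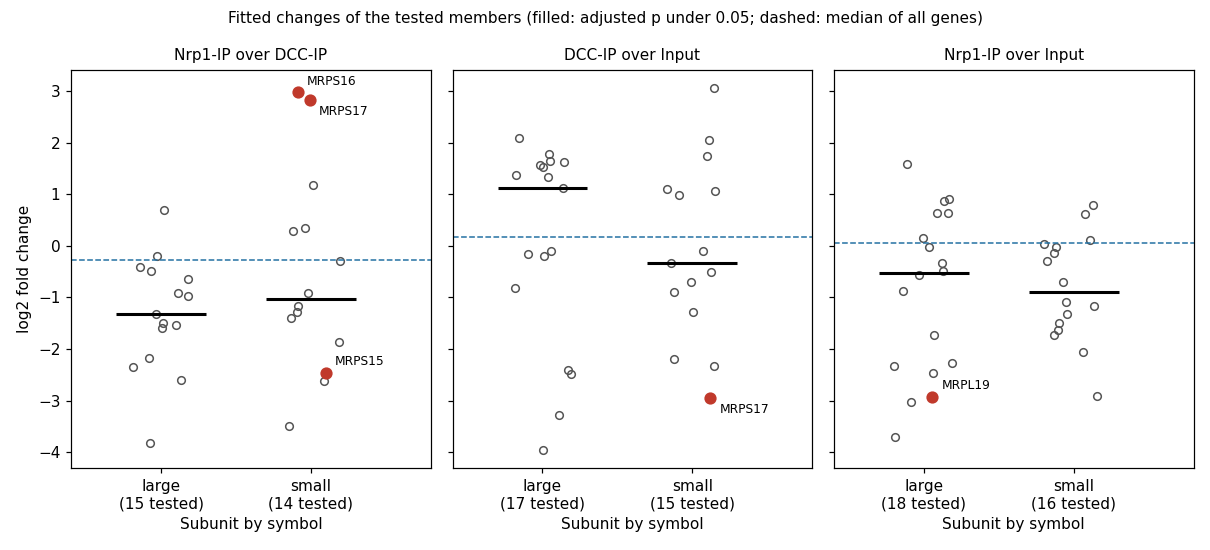
Log2 fold change of each tested member by subunit symbol in the 3 comparisons; filled red points passed the adjusted threshold, black lines are medians of the tested members and dashed blue lines the median of all genes. MRPS16 and MRPS17 stand apart at the top between the pulldowns, where most other points lie below 0, and large subunit genes fall into a group above 1 and a group below 0 in DCC-IP over Input.

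DCC-IP over Input asks which mRNAs the DCC pulldown held relative to the lysate. It covered 32 members of 6223 genes, 15 with a positive and 17 with a negative log2 fold change. MRPS17 was called higher in Input (DCC-IP over Input −2.95 ± 0.68, SE, adjusted p = 0.0448, edgeR), where 3.52% of all genes were. No member was called higher in DCC-IP by edgeR, where 1.46% of all genes were. There, 4 members were higher at an unadjusted p under 0.05, again with no share of all genes to set beside them. DESeq2 called 1 member higher in DCC-IP, MRPS25, where 3.53% of all genes were. DESeq2 called 5 higher in Input, MRPL28, MRPL41, MRPS2, MRPS17 and MRPS18A, where 6.1% of all genes were. With only the genes that had 10 counts in every library, edgeR called 6 of the 15 members left higher in DCC-IP, MRPL9, MRPL10, MRPL34, MRPL38, MRPS15 and MRPS25, where 17.8% of all genes were, and 2 higher in Input, where 12.8% were. Every DCC-IP library was above every Input library for 9 members (15.2% of all genes), and every Input library above every DCC-IP library for 3 (18.2% of all genes). The call of MRPS17 was lost with any library left out (adjusted p 0.0555 to 0.155), with library size only and with MAP1B left out.

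Libraries with the same number deviated together on average, here as in the other comparisons. For DCC-IP over Input, a fit with the replicate block gave other calls, with 3.82% of all genes higher in DCC-IP and 7.67% higher in Input. In this edgeR fit with the block MRPS17 (−3.15, adjusted p = 0.00140) and MRPS16 (−2.32, adjusted p = 0.00364) were higher in Input. MRPS15 was higher in DCC-IP there (2.06, adjusted p = 0.0439). Without the block MRPS16 was at −2.20 ± 0.61 (adjusted p = 0.0719) and MRPS15 at 2.06 ± 0.57 (adjusted p = 0.0723).

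The large subunit genes split in this comparison. Positive values without a call were those of MRPL9 (2.098 ± 0.66), MRPL15 (1.79 ± 1.64), MRPL10 (1.65 ± 0.68), MRPL38 (1.62 ± 0.74), MRPL33 (1.56 ± 0.87), MRPL52 (1.52 ± 1.13) and MRPL34 (1.37 ± 0.60), with adjusted p from 0.104 to 0.591. Negative values were those of MRPL4 (−3.96 ± 2.34), MRPL12 (−3.27 ± 2.31), MRPL3 (−2.48 ± 2.39), MRPL19 (−2.40 ± 1.26) and MRPL20 (−0.82 ± 1.58), none past the threshold. MRPL12, whose protein forms the mobile arms of the stalk that MRPL10 anchors, had 0, 0 and 13 counts in DCC-IP and 0, 78 and 14 in Input. The counts of MRPL3, 0, 0 and 43 in DCC-IP and 0, 162 and 10 in Input, and of MRPL4, 0, 11 and 0 against 0, 111 and 24, rested on Input replicate 2 in the same way. The median of the large subunit genes was 1.12, beside −0.34 for the small subunit and 0.16 for all genes. The large subunit median was not stable, as it went below 0 with DESeq2 (−0.49), with no filter (−2.39) and with all 9 libraries in one fit (−0.40). With MRPS30 and MRPS18A counted as large subunit and MRPS36 left out, it was 0.513, and the small subunit median was −0.337.

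Among small subunit genes in DCC-IP over Input, MRPS25 had the highest value (3.06 ± 0.81, adjusted p = 0.0647), and MRPS6 was at 1.75 ± 1.06 (adjusted p = 0.397). Negative and uncalled values were those of MRPS30 (−2.32 ± 1.64), MRPS5 (−1.28 ± 1.69) and MRPS18C (−0.89 ± 1.58).

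Nrp1-IP over Input covered 34 members of 6501 genes, with 10 positive and 24 negative values. MRPL19, a large subunit protein with a bacterial relative, was called higher in Input, where 3.03% of all genes were. It had 1, 81 and 79 counts for DCC-IP, 47, 28 and 29 for Nrp1-IP and 105, 326 and 186 for Input, so that each Nrp1-IP library was below each Input library in CPM (2.18 to 4.39 against 13.5 to 38.9). Its log2 fold change was −2.92 ± 0.57 (SE, adjusted p = 0.0324, edgeR). That call stayed without Input replicate 3 (adjusted p = 0.0295) and was lost without any other library (0.0515 to 0.198) and with all 9 libraries in one fit. In DCC-IP over Input the same gene was at −2.40 (adjusted p = 0.311), and the comparisons share the Input libraries.

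No member was called higher in Nrp1-IP than in Input, by edgeR, by DESeq2 or at an unadjusted p under 0.05 in edgeR, where edgeR called 1.94% and DESeq2 4.02% of all genes. DESeq2 called 4 members higher in Input, MRPL3, MRPL19, MRPL20 and MRPS18A, where 7.24% of all genes were. Every Nrp1-IP library was above every Input library for 2 members (17.7% of all genes), and every Input library above every Nrp1-IP library for 5 (13.8% of all genes). The median log2 fold change was −0.53 for large and −0.89 for small subunit genes, beside 0.06 for all genes. Positive values were those of MRPL15 (1.59 ± 1.56), MRPL49 (0.90 ± 1.35), MRPL10 (0.86 ± 0.43), MRPS16 (0.80 ± 0.48), MRPL9 (0.64 ± 0.43), MRPL37 (0.64 ± 0.71), MRPS25 (0.61 ± 0.57), MRPL34 (0.15 ± 0.42), MRPS7 (0.11 ± 1.13) and MRPS33 (0.03 ± 0.48). Beside MRPL19, the most negative were MRPL41 (−3.70 ± 2.06), MRPL12 (−3.03 ± 2.03), MRPS2 (−2.92 ± 2.01), MRPL4 (−2.47 ± 1.87), MRPL1 (−2.33 ± 1.33), MRPL28 (−2.27 ± 1.97), MRPS5 (−2.05 ± 1.50), MRPL43 (−1.73 ± 0.97) and MRPS27 (−1.72 ± 1.95), with adjusted p from 0.350 to 0.675. MRPS30 was at −1.32, MRPS18C at −1.09 and MRPS15 at −0.29 (adjusted p 0.355, 0.460 and 0.790).

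The 3 paralogs of MRPS18 differed in detection. MRPS18B had 0 counts in all 9 libraries. MRPS18A, a large subunit protein in spite of its symbol, had 0 counts for all of DCC-IP, 0, 4 and 1 for Nrp1-IP and 28, 24 and 8 for Input. It did not pass the filter in edgeR. DESeq2, run without that filter, called it lower than Input in DCC-IP (adjusted p = 0.00882) and in Nrp1-IP (adjusted p = 0.0293). Its mean in Input was 2.49 CPM, at least 9.50-fold higher than the floor of 3 counts per library allows in DCC-IP. MRPS18C had 0, 35 and 29 counts for DCC-IP, 10, 23 and 21 for Nrp1-IP and 29, 39 and 18 for Input, with no call. MRPS30, the other large subunit protein with a small subunit symbol, had 1, 1 and 102 counts for DCC-IP, 26, 70 and 119 for Nrp1-IP and 108, 48 and 202 for Input. Its DCC-IP mean (2.42 ± 4.02 CPM) rested on replicate 3 alone.

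Other symbols also name proteins of the mitochondrial ribosome, and 7 of them were in the tables. PTCD3, a pentatricopeptide protein of the small subunit, had 1323, 282 and 781 counts for DCC-IP, 29, 28 and 86 for Nrp1-IP and 3, 15 and 10 for Input. It was called higher in DCC-IP than in Input (log2 fold change 6.02 ± 1.01, adjusted p = 0.0145) and lower in Nrp1-IP than in DCC-IP (−4.33 ± 0.82, adjusted p = 0.0204, edgeR). DAP3, a GTP-binding protein of the small subunit, had 449, 564 and 475 counts for DCC-IP, 355, 362 and 406 for Nrp1-IP and 194, 261 and 123 for Input, and was not called (DCC-IP over Input 0.95 ± 0.60, adjusted p = 0.421). ICT1, a peptidyl-tRNA hydrolase built into the large subunit, was not called either (1.36 ± 0.87, adjusted p = 0.423). The other 4, AURKAIP1, CHCHD1, GADD45GIP1 and MRP63, had 0 counts in DCC-IP replicates 1 and 2.

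For scale, 89 cytosolic ribosomal protein genes summed to 677 ± 194 CPM (SD, n = 3) for DCC-IP, 1922 ± 229 for Nrp1-IP and 2673 ± 462 for Input, and 85 nuclear genes of the respiratory chain to 533 ± 192, 1199 ± 147 and 1873 ± 646. All 76 members together summed to 597 ± 195, 1894 ± 727 and 1590 ± 644 CPM. Between the pulldowns, edgeR called 4 cytosolic ribosomal protein genes higher and 1 lower in Nrp1-IP, where 2.56% and 1.09% of all genes were. Their median log2 fold change was −1.10 over the 36 tested. The respiratory chain had 1 call in each direction with a median of −1.02 over 29. Against Input, edgeR called 5 cytosolic ribosomal protein genes lower in DCC-IP and 7 lower in Nrp1-IP, where 3.52% and 3.03% of all genes were lower, with medians of −1.65 and −2.16. The respiratory chain had 2 lower in each, with medians of −0.72 and −0.85. The counts were higher in DESeq2. Lower than Input in DCC-IP it called 12 of 67 cytosolic ribosomal protein genes tested and 5 of 46 of the respiratory chain, where 6.1% of all genes were. In Nrp1-IP it called 25 of 69 and 7 of 44 lower than Input, where 7.24% of all genes were. Between the pulldowns it called 5 of 51 cytosolic ribosomal protein genes and 3 of 41 of the respiratory chain higher in Nrp1-IP, where 4.94% of all genes were. Lower there were 5 and 2, where 2.7% of all genes were. Whether the members differed from these lists was not tested.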

How the data were processed

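HISAT2 2.1.0 for alignment and HTSeq 0.11.0 for counting were run by the authors, who deposited raw counts per gene symbol in 1 table per library, not normalized. The submitters' processing notes also name bcl2fastq and the build hg19, and the annotation and strand setting are not given in the sources used here. The 5 summary lines of HTSeq were left out of all totals. Reads on no gene made up 48.7% to 55.8% of a library and reads aligned to several places 2.83% to 3.83%, which bears on genes with near-identical copies. Groups and replicate numbers came from the labels.

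Each pair of groups was tested on its 6 libraries in edgeR 4.0.16 (R 4.3.3) with filterByExpr (minimum count 10), TMM scaling, glmQLFit and glmQLFTest, as the study names edgeR and this threshold. A gene was called at a Benjamini-Hochberg adjusted p under 0.05 over all genes tested, with no minimum fold. The SE is the size of the log2 fold change divided by the square root of F. The fit was run on simulated data to check the code. No result of that run is given, and no statement above rests on it. Alternatives were DESeq2 1.42.0, RLE scaling, library size only, no filter, a minimum of 10 counts in each library, the replicate block, a joint fit of the 9 libraries, MAP1B left out, another assignment to subunits and each library left out. Annotation came from RefSeq genes of GRCh38.p14, which held 75 of the 76 symbols (not MRPS36), 32 of them overlapping another gene. Overlaps were found from gene positions in that build, which differs from the build named for the counts, so no coordinates are printed. Python 3.11.15 with pandas 2.3.3 and matplotlib 3.10.9 did the rest.

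The replicate numbers were checked by the correlation, over genes, of the deviations of same-numbered libraries from their group means. It was 0.117 to 0.421 for DCC-IP and Input, 0.099 to 0.361 for Nrp1-IP and DCC-IP and −0.004 to 0.364 for Nrp1-IP and Input. Libraries with different numbers gave −0.31 to 0.136, −0.208 to 0.099 and −0.37 to 0.168 in the same order. The means were 0.242, 0.191 and 0.192 for same numbers, and −0.121, −0.095 and −0.096 for different ones. Deviations from a group mean cancel within the group, so the means for different numbers largely follow from the others and add no separate evidence. These values do not set DCC-IP and Input apart from the other pairs of groups. Calls are from fits without the block unless it is named. What same-numbered libraries shared is not stated.

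Members and lists were chosen with earlier results of these data known. Named were all called members, the 10 members with the largest positive and the 10 with the largest negative log2 fold change in each comparison, as far as there were any, those not over the floor, MRPS30 and the MRPS18 paralogs. MRPS33 and MRPS21 fell under this rule, but their counts, and MRPS33 in the dot plot, were added for their place in a count after their values were seen. DNAJC9-AS1 was added beside a member in the same way. No sequences were printed. Some marker genes of the line are not reported here.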

Additional observations from a re-analysis of the deposited data

Results flagged for a closer look

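For MRPS16, MRPS17 and MRPS15 the pulldowns differed from each other. Nrp1-IP over DCC-IP was fitted on the 6 pulldown libraries alone, so Input did not enter it. Its log2 fold change passed edgeR's adjusted threshold for MRPS16 (2.98, adjusted p = 0.0165), MRPS17 (2.83, adjusted p = 0.0266) and MRPS15 (−2.47, adjusted p = 0.0443). All 3 Nrp1-IP libraries lay on the same side of all 3 DCC-IP libraries for each gene. With a library left out, the call stayed in 4 of 6 fits for MRPS16, 2 of 6 for MRPS17 and 0 of 6 for MRPS15. MAP1B took 40.3% to 52.1% of the DCC-IP counts; with it left out before scaling, MRPS16 and MRPS17 stayed called and MRPS15 did not.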

How the results depend on the processing

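Between the pulldowns, the 2 members called higher in Nrp1-IP became 1 with library size only and 0 to 2 with a library left out. The 1 higher in DCC-IP became 0 with RLE scaling, library size only, no filter or MAP1B left out, 5 with DESeq2, 3 with 10 counts in every library and 0 to 0 with a library left out. DESeq2 called 2.7% of all genes higher in DCC-IP, beside 1.09% in edgeR. Where the share of all genes is not given beside a count in this section, the count is no result about the members. The replicate block kept 2 and 1, with the same genes. The large subunit median of −1.33 became −0.53 with no filter, −0.57 with all 9 libraries in one fit and −1.32 to −0.16 with a library left out, and the small subunit median of −1.04 became 0.26 with no filter, −0.46 with MAP1B left out, −0.65 with the replicate block and −1.16 to −0.21 with a library left out (−0.21 without DCC-IP replicate 3; the large subunit median was −0.16 without it).

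In DCC-IP over Input, the 0 members higher in DCC-IP became 1 with library size only, 1 with DESeq2, 6 with 10 counts in every library, 2 with all 9 libraries and 1 with the replicate block. The 1 higher in Input became 0 with library size only or MAP1B left out, 5 with DESeq2, 2 with 10 counts in every library, with all 9 libraries or with the replicate block, and 0 to 0 with a library left out. The share of all genes called higher in DCC-IP moved from 1.46% to 3.53% with DESeq2, 17.8% with 10 counts in every library and 3.82% with the block. For Input it moved from 3.52% to 6.1%, 12.8% and 7.67% in the same order. The large subunit median of 1.12 became −0.49 with DESeq2, −2.39 with no filter, −0.40 with all 9 libraries and −0.63 to 0.70 with a library left out. The small subunit median of −0.34 became 1.37 with 10 counts in every library, −1.01 with DESeq2, −1.04 with no filter, −0.71 with all 9 libraries, −0.52 with the replicate block, −0.21 with MAP1B left out, −0.03 with library size only and −1.52 to 0.13 with a library left out.

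In Nrp1-IP over Input, the 1 higher in Input became 4 with DESeq2, 3 with no filter, 0 with all 9 libraries and 0 to 1 with a library left out, and the replicate block kept 0 and 1. DESeq2 called 7.24% of all genes higher in Input, beside 3.03% in edgeR. The large subunit median of −0.53 became −2.18 with no filter, −1.14 with DESeq2, −0.18 with library size only, −0.22 with 10 counts in every library and −1.15 to −0.50 with a library left out (−1.15 without Input replicate 1). The small subunit median of −0.89 became −0.49 with library size only, −1.31 with DESeq2 and −0.31 with 10 counts in every library. The summed CPM of the large subunit in Nrp1-IP, 98.2, became 112 with library size only and 122 with MAP1B left out. The small subunit sums became 163, 53.5 and 88.2 CPM in DCC-IP, Nrp1-IP and Input without MRPS16 and MRPS17. Filters change which genes are tested; other causes were not tested.

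Of 838 values of 62 named results under the alternatives, 787 kept their side of the threshold, 20 passed it newly and 31 lost it. Only a called result can lose it. These were MRPS15, MRPS16 and MRPS17 between the pulldowns, MRPS17 in DCC-IP over Input and MRPL19 in Nrp1-IP over Input. All 31 losses fell on them. Most of the 787 were uncalled values that stayed uncalled, so the 787 do not measure how stable the calls were. No called value changed sign, and 33 uncalled values of 11 results did. The median over all genes moved from −0.27 to −0.10 between the pulldowns with library size only, from 0.16 to 0.48 in DCC-IP over Input and from 0.06 to 0.44 in Nrp1-IP over Input. It moved with other settings too. Between the pulldowns it was 0.315 without DCC-IP replicate 3, 0.167 with no filter and 0.132 with the replicate block. In DCC-IP over Input it was 0.426 with 10 counts in every library and −0.248 with no filter. Changes of the members are best read against it. Low counts limit most members: 47, 44 and 42 of the 76 had too few counts to be tested in the 3 comparisons. What made the counts low was not tested.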

Other observations

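Other nuclear genes of mitochondrial translation were also counted. LRPPRC, which stabilizes mitochondrial mRNAs, was lower in Nrp1-IP than in DCC-IP (log2 fold change −1.53, adjusted p = 0.0443) and than in Input (−2.20, adjusted p = 0.0158, edgeR), with 1402, 1590 and 1588 counts in Nrp1-IP against 3938, 3633 and 4400 in DCC-IP and 6445, 5292 and 3648 in Input. MTFMT, which formylates the initiator tRNA of mitochondria, was lower than in Input in DCC-IP (−3.28, adjusted p = 0.0197) and in Nrp1-IP (−3.96, adjusted p = 0.00227), with 2432 to 3533 counts in Input and 196 to 627 in the pulldowns. These were the genes edgeR called among the 16 translation factors listed, and DESeq2 also called MTIF3 lower in Nrp1-IP than in DCC-IP (−2.68, adjusted p = 0.0087; edgeR −2.86, adjusted p = 0.129). Of 18 assembly factors and 17 mitochondrial aminoacyl-tRNA synthetases, edgeR called 0 in each comparison. Under an unadjusted p of 0.05 were 3 assembly factors between the pulldowns, 3 in DCC-IP over Input and 1 synthetase in Nrp1-IP over Input. For that level the share of all genes was not counted. DESeq2 called 3 assembly factors between the pulldowns (FTSJ2, MTERFD2 and RBFA) and 1 synthetase each between the pulldowns (NARS2) and in DCC-IP over Input (EARS2), but did not call LRPPRC between the pulldowns.

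The transcripts that the mitochondrial ribosome itself uses were few in most pulldown libraries. The 15 mitochondrially encoded mRNAs and rRNAs summed to 493, 7160 and 7798 counts in Input, 3, 16 and 1276 in DCC-IP and 8, 74 and 476 in Nrp1-IP. In CPM the sum in DCC-IP replicate 3 (88.4) was above that in Input replicate 1 (63.5). MT-CO3 was called lower in both (−7.47, adjusted p = 0.0488 in DCC-IP, and −5.82, adjusted p = 0.0412 in Nrp1-IP, edgeR), and MT-ATP6 in Nrp1-IP (−6.33, adjusted p = 0.0181). DESeq2 called 6 of 13 tested lower in DCC-IP and 9 of 14 in Nrp1-IP, where 6.1% and 7.24% of all genes were. The lysate was cleared by centrifugation before the pulldown, and whether this was so for Input is not stated.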
